A study of Homo sapiens with 6 samples.

Results

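The neutrophil-attracting CXC chemokines CXCL1, CXCL2, CXCL3, CXCL5, CXCL6 and CXCL8 were followed in HT-29 cells on HGU133 Plus 2.0 arrays. Probe sets annotated to one of these symbols alone were taken, which gave 11 of 54614 probe sets and 6 of 19775 genes, control probe sets aside. CXCL1, CXCL3 and CXCL6 have 1 probe set each, CXCL8 has 2, and CXCL2 and CXCL5 have 3 each. Of the 11, 3 carry the suffix _x_at, which marks probes that also match other transcripts, and these are given apart. The genes were chosen because signals in this same comparison were known to differ, so their values stand as a description and no test is given on them.

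HT-29 cells descend from a human adenocarcinoma of the colon. The treated cells received 5-aza-2′-deoxycytidine (5-Aza), a cytidine analog that traps DNA methyltransferases on newly made DNA, at 10 µM for 72 hours in medium without serum. Control cells were given water and acetate, in which the agent had been dissolved, and their culture time is not given separately. Each group had 3 arrays (n = 3), and whether these came from separate cultures is not given in the sources used here. The p-values below therefore measure only the spread between these arrays, which may be technical.

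These chemokines are small secreted proteins that carry the residues Glu-Leu-Arg just before the CXC cysteine motif. They bind the receptor CXCR2 on neutrophils, and CXCL6 and CXCL8 also bind CXCR1. Colon epithelial cells release them on contact with bacteria or with cytokines such as IL-1 and TNF, largely through NF-κB, and they call neutrophils into the inflamed mucosa.

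All 6 genes lie in a cluster on chromosome 4, and their promoters fall into related groups. The 150 bases before the transcription start are shown for each gene, since they hold the element that the members have in common. The sequences are those of RefSeq (GRCh38.p14), written 5′ to 3′ on the strand of the gene. Capitals mark the longest run of bases present in all 6 stretches, GGAATTTCC, together with the neighboring bases where they complete a match to the κB consensus, the binding motif of NF-κB.
CXCL1 (chr4:73869243-73869392, plus strand): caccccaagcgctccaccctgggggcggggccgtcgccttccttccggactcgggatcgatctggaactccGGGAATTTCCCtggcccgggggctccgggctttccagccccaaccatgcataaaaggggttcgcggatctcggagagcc
CXCL2 (chr4:74099196-74099345, minus strand): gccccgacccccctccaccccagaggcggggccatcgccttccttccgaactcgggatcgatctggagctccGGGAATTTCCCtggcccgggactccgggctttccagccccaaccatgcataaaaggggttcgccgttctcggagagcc
CXCL3 (chr4:74038690-74038839, minus strand): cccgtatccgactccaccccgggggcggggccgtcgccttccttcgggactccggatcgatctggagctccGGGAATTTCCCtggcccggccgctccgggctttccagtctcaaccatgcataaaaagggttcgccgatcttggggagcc
CXCL5 (chr4:73998678-73998827, minus strand): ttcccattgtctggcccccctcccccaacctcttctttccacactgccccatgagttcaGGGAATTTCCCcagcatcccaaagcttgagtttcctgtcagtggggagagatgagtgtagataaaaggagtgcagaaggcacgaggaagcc
CXCL6 (chr4:73836528-73836677, plus strand): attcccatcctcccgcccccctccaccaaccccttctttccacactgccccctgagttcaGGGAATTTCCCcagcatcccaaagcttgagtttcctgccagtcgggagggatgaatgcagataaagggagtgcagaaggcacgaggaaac
CXCL8 (chr4:73740419-73740568, plus strand): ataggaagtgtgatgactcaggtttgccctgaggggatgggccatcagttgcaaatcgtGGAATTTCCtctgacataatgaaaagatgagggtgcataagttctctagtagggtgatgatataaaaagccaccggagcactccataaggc

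In CXCL1, CXCL2, CXCL3, CXCL5 and CXCL6 the run was extended to GGGAATTTCCC. Read on either strand, these 11 bases matched the κB consensus in overlapping positions. The first match began at -79 in CXCL1 and CXCL3, -78 in CXCL2, -91 in CXCL5 and -90 in CXCL6, counted from the transcription start. In CXCL8 the shared 9 bases stood at -91 to -83, without a full match to the consensus. The consensus was present in the 250 bases before the start of 5.21% of 35116 promoters (1828 in number, both strands searched). GGAATTTCC was present in 0.413% of them and GGGAATTTCCC in 0.0769%, which is 27 promoters. The run was found in these very genes, so these shares describe how common the letters are and test nothing.

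The AP-1 motif TGANTCA, searched on both strands, was found in the same window in CXCL8 alone among the 6 (at -137 to -131) and in 6.57% of all promoters. TATAAA on the strand of the gene was found at -31 to -26 of CXCL8 and in 6.8% of all promoters. No match says only that these letters are not in the window. In global alignments of the 250 bases, CXCL1 and CXCL3 were 81.4% identical, CXCL2 was 67.9% identical to CXCL1 and 73.3% to CXCL3, and CXCL5 and CXCL6 were 85.3% identical. Between these groups, and with CXCL8, identity was between 39.1% and 50.7%. CXCL1, CXCL2 and CXCL3 had 18, 20 and 19 CG dinucleotides, the site of DNA methylation, in the 250 bases. CXCL5 and CXCL6 had 6 each and CXCL8 had 4, where the median promoter had 11. DNA methylation itself was not measured on these arrays.

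The deposited values are linear signals on a common scale. The mean of every array without the lowest and highest 2% of probe sets was 500. Array medians were 86.1, 83.3 and 84.3 on the 5-Aza arrays and 74, 71.8 and 76.9 on the control arrays, without overlap. The control probe sets for the bacterial TrpnX transcript served as a measure of background. Their highest signal was 31.8, 22.6 and 27.9 on the 5-Aza arrays and 23.8, 33.5 and 42 on the control arrays. A signal under the TrpnX value of its own array is called not above background here, as no detection calls were used. This limit differs between arrays, so counts of arrays above it are no comparison of the groups. Of 10 colon epithelial markers, 8 lay above it on all arrays, while CDX1 was above it on none. Of 10 neutrophil markers, S100A12 alone was above it on all 6 arrays, and ELANE and LTF were above it on none. The summed signal of the neutrophil markers was 219.2 to 410.7 on the 5-Aza arrays and 160.2 to 273.8 on the control arrays. That of 6 lymphocyte markers was 329.7 to 528.9 against 226.3 to 314.8, without overlap, with a median log2 fold change of 0.88 and 0 of 6 at an unadjusted p under 0.025. PTPRC, the common leukocyte marker among them, was above background on 1 of the 6 arrays, and CD3D on 1 array of each group. CD79A was above it on all 6 arrays (301.4, 155.4 and 228.3 after 5-Aza against 116.2, 164.3 and 139.3). CD3E, CD2 and MS4A1 were above it on all 3 5-Aza arrays and on 1, 2 and 1 control arrays. These counts depend on the TrpnX value of each array. MS4A1 at 29.5 on 5-Aza replicate 2 counted as above it, and at 30.2 on control replicate 3 it did not. Of 6 endothelial markers VWF was higher at an unadjusted p under 0.025 (log2 1.95, SE 0.55, adjusted p = 0.579 in limma), with no control array above background. Over all genes 3.01% were higher by that rule. CDH5 was at background on all arrays, and PECAM1 above it on all (log2 0.42, SE 0.22). Of 8 monocyte and macrophage and 7 fibroblast markers 0 were higher or lower by that rule. AIF1 alone was higher at an unadjusted p under 0.05 in limma, with 1 5-Aza and 0 control arrays above background. LYZ and ITGAM were above background on all 6 arrays. The groups overlapped for LYZ (log2 0.27, SE 0.21) but not for ITGAM (262.5, 316.4 and 345.2 after 5-Aza against 220.6, 93.3 and 249.2). Over all genes 9.92% were higher without overlap. The part of such markers in the results below was not tested. Since whole cultures were measured, more RNA in each cell and more cells with the RNA cannot be told apart.

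After 5-Aza treatment, CXCL1, CXCL3, CXCL6 and CXCL8 had higher signals with every probe set of theirs, and CXCL2 and CXCL5 with some of theirs. In 7 of the 11 probe sets (63.6%), 3 of them _x_at ones, the groups did not overlap and the 5-Aza arrays were the higher. Each of the 6 genes had at least 1 such probe set, and for CXCL2 and CXCL5 it was the _x_at one alone. Among all probe sets 9.29% were separated this way and 5.22% the other way, but the members were picked on this contrast and nothing is read from the difference. The log2 fold changes of the 7 ran from 2.33 to 5.37. They are differences of mean log2(signal + 1). The upper values rest on control signals near or below background, where single low arrays raise the difference. The log2 ratio of group means was 4.6 for the _x_at probe set of CXCL5, against the fitted 5.37, and 3.09 for CXCL6, against 3.73.

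**Figure D1:**
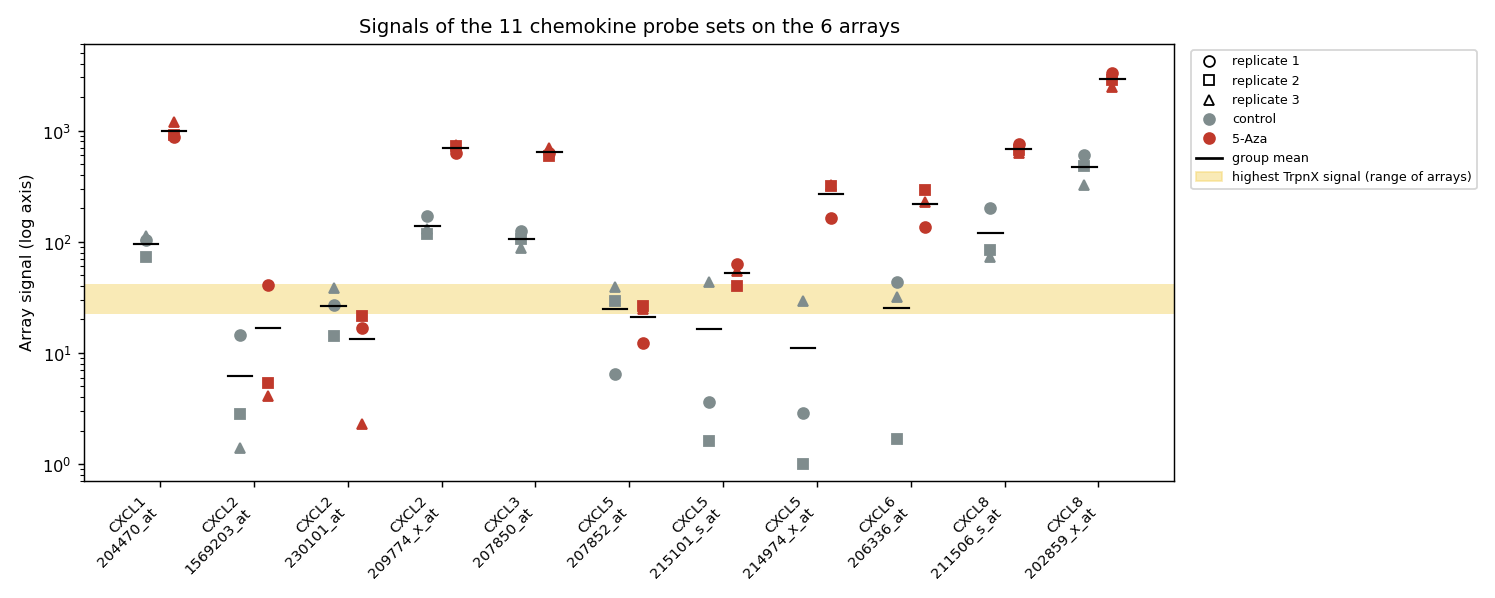
Array signals (log axis) of the 11 chemokine probe sets in HT-29 cells with solvent (grey) or 5-Aza (red). Symbols are single arrays, black bars group means (n = 3), and the band spans the highest TrpnX signals of the arrays (22.6 to 42). For 7 probe sets all red points lie above all grey ones. Grey points reach into or below the band for CXCL5, CXCL6 and the CXCL2 probe sets other than the _x_at one.

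CXCL1, also known as GRO-alpha, was measured by a single probe set. Its signals were 874, 914.4 and 1185.5 on the 5-Aza arrays and 104.1, 72.2 and 111.7 on the control arrays. All 6 values were above background, and the lowest treated signal was several times the highest control one. The means were 991.3 ± 169 and 96 ± 21 (SD, n = 3 each), a log2 fold change of 3.37 (SE 0.24), which is 10.3-fold. Without any 1 array the log2 value stayed between 3.18 and 3.49.

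CXCL3, or GRO-gamma, had signals of 628.7, 596.2 and 691.9 after 5-Aza and of 124.1, 106.2 and 87.6 in control cells. Both groups were tight and far apart. The log2 fold change was 2.59 (SE 0.19), 6.03-fold, and 2.46 to 2.71 without any 1 array.

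CXCL2, or GRO-beta, gave different answers with different probe sets. The _x_at probe set had 631.9, 727.1 and 743.2 after 5-Aza and 169.2, 118.2 and 131 in control cells, and its log2 fold change was 2.33 (SE 0.19). The other probe sets of the gene were weak. The signals of one were 41.1, 5.4 and 4.1 after 5-Aza and 14.5, 2.8 and 1.4 in control cells, and those of the other were 16.6, 21.3 and 2.3 against 27, 14.3 and 38.2. In each of them a single array was above background, and the groups overlapped. Their log2 fold changes were 1.09 (SE 1.09) and -1.23 (SE 0.83). The higher signal of CXCL2 therefore rests on a probe set whose probes may also bind other transcripts. CXCL1 and CXCL3 are the closest relatives of CXCL2 in sequence, and their share in that signal was not tested.

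CXCL6, known as granulocyte chemotactic protein, had 135.2, 290.3 and 227.5 after 5-Aza and 43.2, 1.7 and 31.8 in control cells. All treated arrays were above background and only control replicate 1 was. The means were 217.7 ± 78 and 25.57 ± 21.4 (SD, n = 3 each), and the log2 fold change was 3.73 (SE 1.15). Control replicate 2, at 1.7, carried much of this size, since the value was 2.45 without it. Adding 16 rather than 1 before the logarithm gave 2.6.

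CXCL5, an epithelial chemokine related to CXCL6, also differed between its probe sets. The _x_at probe set had 162.5, 315 and 324.1 after 5-Aza against 2.9, 1 and 29.2 in control cells. No control array was above background with this probe set, so on average of the logs its treated signal was at least 7.7-fold higher. For this bound each control array was given the higher of its own signal and its TrpnX value. The fitted log2 value of 5.37 (SE 1.06) is no bound. It was 3.48 with 16 added and 4.56 to 6.52 without any 1 array. The _s_at probe set had 62.6, 40.4 and 54.5 against 3.6, 1.6 and 43.6, with all treated arrays and control replicate 3 above background. Its groups overlapped, because control replicate 3 exceeded 5-Aza replicate 2, and its log2 fold change of 2.7 (SE 1.1) was 1.31 with 16 added. The plain _at probe set had 12.4, 26.3 and 25 against 6.5, 29.2 and 39.3, with 1 treated and 0 control arrays above background and a log2 fold change of 0.02 (SE 0.72). The separation of the groups for CXCL5 therefore rests on a probe set whose probes may also bind other transcripts. The share of other transcripts, such as that of CXCL6, in its signal was not tested.

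CXCL8, or interleukin-8, was seen by both of its probe sets alike. The signals of the _s_at one were 757.1, 663.6 and 622.7 after 5-Aza and 202.5, 84.4 and 73.2 in control cells. Those of the _x_at one were 3319.7, 2855.4 and 2479.5 after 5-Aza and 599.9, 477.2 and 326.7 in control cells. On both, replicate 1 was the highest array of its group and replicate 3 the lowest. The log2 fold changes were 2.64 (SE 0.42) and 2.65 (SE 0.28), or 6.25-fold and 6.3-fold, and the groups were well apart with either.

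**Figure D2:**
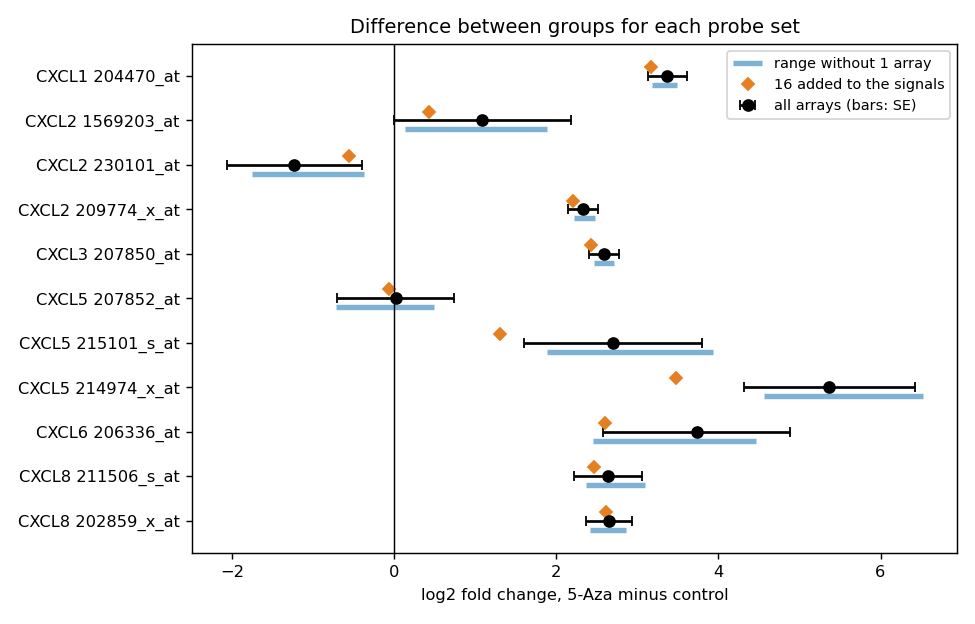
Log2 fold change (5-Aza minus control) of each chemokine probe set with its SE (black, n = 3 arrays per group), its range when any 1 array is left out (blue) and its value with 16 added to the signals (orange). The SE is 0.19 to 0.42 for CXCL1, CXCL3, CXCL8 and the _x_at probe set of CXCL2, and 0.72 to 1.15 for CXCL5, CXCL6 and the other CXCL2 probe sets.

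The spread within groups differed among the members. For the 7 probe sets without overlap, the SD of log2 signals between the 5-Aza arrays was 0.11 to 0.56, and between the control arrays it was 0.25 to 2.21. The highest control SDs belonged to CXCL6 (2.21) and CXCL5 (2.04 with the _x_at probe set), with 1 and 0 control arrays above background, and the next was that of CXCL8 (0.79 with the _s_at probe set). Control replicate 2 was the lowest control array in 6 of the 11 probe sets, replicate 3 in 4 and replicate 1 in 1. Over all probe sets control replicate 2 was the lowest in 37.6%. After centring each array on its median, the log2 fold changes were 3.18 for CXCL1, 2.41 for CXCL3, 2.15 for the _x_at probe set of CXCL2, 3.54 for CXCL6 and 2.46 for CXCL8 (_s_at). This centring moved the median of all probe sets from 0.062 to -0.125. It shifts all probe sets of an array by the same amount and so cannot change how the chemokines stand to the rest.

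The chemokine cluster also holds genes that are no members, and their signals show how far the difference extended along the chromosome. In the order of protein-coding genes the members span 359 kb, with PF4V1, PF4 and PPBP between them. These 3 encode platelet chemokines, of which PPBP is the precursor of a further neutrophil attractant. PPBP was at background on all 6 arrays (1.1 to 6.8 after 5-Aza and 1.3 to 18.1 in control cells). PF4 had 77.7, 81.1 and 99.3 after 5-Aza against 26.8, 84.2 and 104 in control cells with its only single-symbol probe set, an _x_at one, and the groups overlapped. PF4V1 had 6.4, 7 and 37.9 against 1.4, 1.2 and 2.9, which exceeded background on 5-Aza replicate 3 alone, so no fold is given.

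Outside the outermost members, 10 protein-coding genes on either side were examined, and 20 of the 23 nonmembers in the window had a probe set of their own. By limma, 3 of the 20 were higher at an unadjusted p under 0.025 and 0 lower, while 3.01% of the 19775 measured genes were higher and 0.915% lower by the same rule (2.97% and 1.05% of probe sets). Besides PF4V1 these were BTC, the EGF family ligand betacellulin (log2 fold change 0.76, SE 0.19, adjusted p = 0.516 over all probe sets), and THAP6, a zinc finger protein (0.51, SE 0.15, adjusted p = 0.589). At an unadjusted p under 0.05 SLC4A4, a bicarbonate transporter, was lower (-0.40, SE 0.13). None passed an adjusted p under 0.05. MTHFD2L, a folate enzyme that directly follows CXCL2, had a log2 fold change of -0.07 (SE 0.16). The nearest neighbor on the side of CXCL8, RASSF6, had 845.6, 929.9 and 902.6 after 5-Aza and 654.7, 244.5 and 591.8 in control cells (log2 0.97, SE 0.41, adjusted p = 0.713). Its groups did not overlap, and control replicate 2 was the lowest there too. EREG, another EGF family ligand of the region, had 0.06 (SE 0.15). MTHFD2L, RASSF6, EREG and SLC4A4 were named after their values had been seen.

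**Figure D3:**
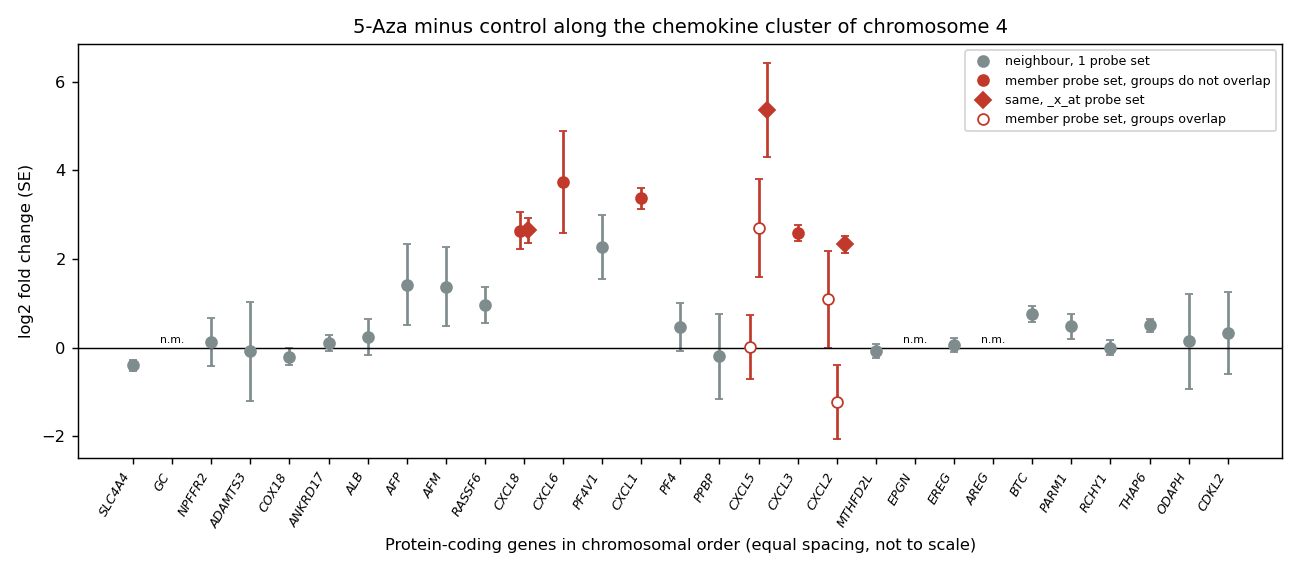
Log2 fold change with SE (n = 3 arrays per group) of protein-coding genes in chromosomal order around the chemokine cluster of chromosome 4. Members are red, with one point for each probe set, neighbors are grey, and n.m. marks genes without a probe set of their own. Each member has a probe set above 2, for CXCL2 the _x_at one alone. The signals of PF4V1 were above background on 5-Aza replicate 3 alone, so the height of its point is not read as a fold. RASSF6 beside CXCL8 lies at 0.97, and MTHFD2L and EREG on the other side at -0.07 and 0.06.

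The rest of the chemokine system was followed in 8 lists of 134 genes, the neighbors included, of which 123 were measured. By limma, 13 of the 123 (10.6%) were higher at an unadjusted p under 0.025 and 0 lower, against 3.01% and 0.915% of all genes. With p adjusted over the whole array and a limit of 0.05, 0 were called in either direction (smallest adjusted p = 0.146), and at an unadjusted p under 0.05 limma had 19 higher and 1 lower. Of the 13, 3 stayed under 0.025 whichever array was left out (S100A8, IL36G and CCL22) and 4 did after median centring. The median log2 fold change of the 123 was 0.24, and that of all genes 0.038. The lists were written with earlier results of these arrays known.

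Among 12 other CXC and CX3C chemokines 3 were higher by this rule and 0 lower, with a median log2 fold change of 0.50. That median was 0.28 after quantile normalization, 0.31 after median centring and 0.87 without control replicate 3. CX3CL1, a membrane-bound chemokine for monocytes and lymphocytes, had 771.5, 690.5 and 831.9 after 5-Aza and 457.6, 362.2 and 560.8 in control cells (log2 0.75, SE 0.21, adjusted p = 0.579). The groups did not overlap, and the value was 0.56 after median centring. CXCL14 had 39.5, 22.6 and 32.1 against 18.5, 2.5 and 3.5. It was above background on 2 5-Aza arrays and on no control array, so no fold is given. PF4V1 is given above. The interferon-induced CXCL10, named after its values were seen, had 148.3, 55.6 and 110.1 against 78.5, 69.3 and 75.5, and its groups overlapped.

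Of 12 measured CC chemokines 1 was higher and 0 lower, and the median was 0.41. CCL22 had 24.1, 23.5 and 27.3 after 5-Aza against 15.7, 9.6 and 10.1 in control cells, but 1 of the 6 arrays was above background and no fold is given. CCL28, a mucosal chemokine and the strongest signal of the list, differed by 0.47 on the log2 scale (SE 0.37), and its groups overlapped.

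The receptors of the members were at or near background. CXCR1 had signals of 15.9 to 29.1 over the 6 arrays and CXCR2 of 5.8 to 38.6, each above background on 1 5-Aza array and on 0 control arrays. Both are also in the list of neutrophil markers and were named as the members' receptors, outside the rule. Among 9 receptors and binders 1 was higher and 0 lower. It was ACKR2, a scavenger of CC chemokines, with 73.4, 58.1 and 93.9 against 34.1, 50.3 and 26.7 (log2 1.02, SE 0.31, adjusted p = 0.603). CXCR4, the receptor of CXCL12, was strongly expressed in both groups and had a log2 fold change of 0.17 (SE 0.15).

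Other factors that draw, feed or mark neutrophils formed a list of 20 measured genes, of which 3 were higher by the same rule and 0 lower. Their median log2 fold change was 0.73, but 0.35 over the members above the median signal of the array and 0.41 with 16 added. In 10 of the 20 (7 of them without an unadjusted p under 0.025) the 5-Aza arrays all exceeded the control arrays, and in 1 they all lay below, which 9.92% and 6.94% of all genes showed. S100A8, a subunit of calprotectin, had 41.4, 40.7 and 38.6 after 5-Aza and 3.3, 6 and 6.6 in control cells (adjusted p = 0.146). No control array was above background, so on average of the logs the treated signal was at least 1.24-fold higher. This bound does not hold array by array, as the TrpnX value of control replicate 3 (42) exceeded every treated signal. Its partner S100A9, named after its values were seen, was at background on all 6 arrays. IL36G, an epithelial cytokine of the IL-1 family, had 36.6, 36.3 and 67.1 against 1.7, 7.4 and 3.7 (adjusted p = 0.280). It was at least 1.37-fold higher by the same average bound, with 5-Aza replicates 1 and 2 under that TrpnX value. IL1B, which induces these chemokines in epithelium, had 80, 85.5 and 110.6 against 46, 58.6 and 56.7 (log2 0.76, SE 0.20, adjusted p = 0.546).

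The machinery that receives inducing signals was followed next. Of 23 receptors and adaptors for IL-1, IL-17, TNF and bacterial ligands, 1 was higher and 0 lower, and the median log2 fold change was 0.00. IRAK2, a kinase of the IL-1 and Toll-like receptor pathway, had 574.4, 553 and 557.2 after 5-Aza and 311.9, 286.2 and 441.6 in control cells (log2 0.72, SE 0.21, adjusted p = 0.583). Its relative IRAK1 had 0.05 (SE 0.15). Chemokine mRNAs are short-lived, and proteins that destroy or protect such mRNAs were measured by 13 genes. None was higher or lower at an unadjusted p under 0.025 or 0.05 in limma, 0 were called at an adjusted p, and the median was -0.05. SRSF1 had -0.05 (SE 0.13) and ZFP36L2, which targets AU-rich messages for decay, -0.23 (SE 0.20).

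Proteases that trim or inactivate these chemokines numbered 17, of which 2 were higher and 0 lower (median 0.25). MMP1, a collagenase, had 72.6, 70.9 and 67.1 after 5-Aza against 55.9, 35.1 and 33.6 (log2 0.78, SE 0.24, adjusted p = 0.604). ANPEP, an aminopeptidase of the brush border, had 0.51 (SE 0.16, adjusted p = 0.613), and it passed an unadjusted p under 0.025 in none of the 6 fits with 1 array left out. For MMP1 and ANPEP the groups did not overlap.

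**Figure D4:**
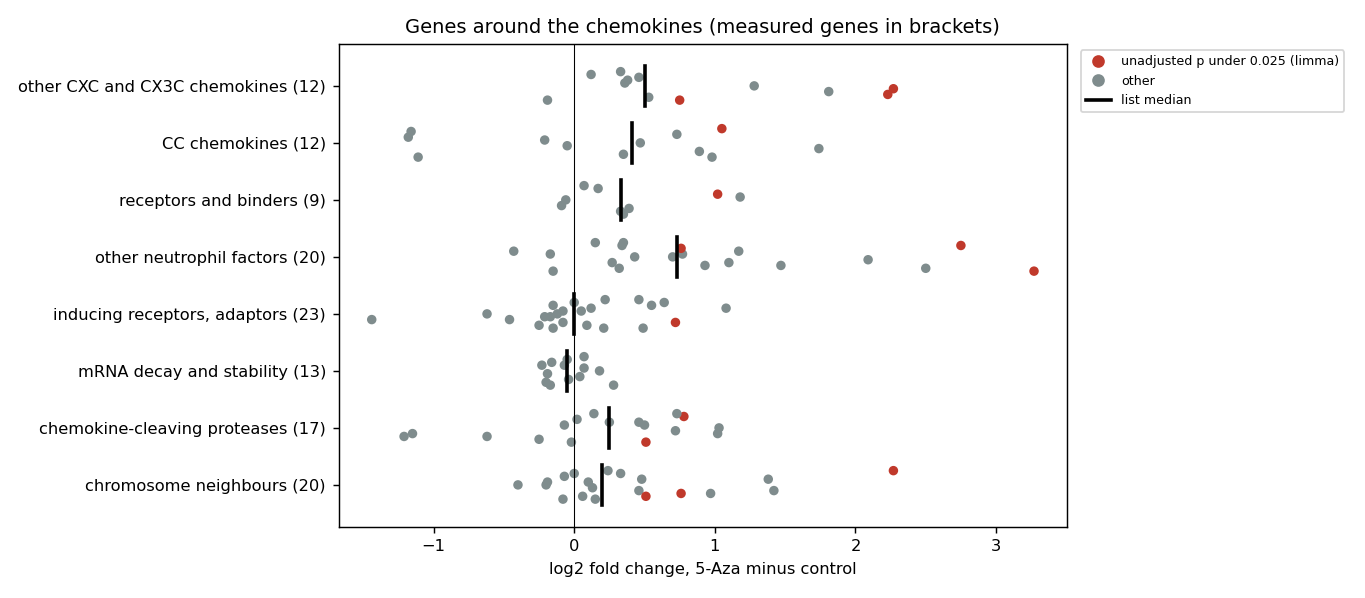
Log2 fold change (5-Aza minus control, n = 3 arrays per group) of the measured genes of 8 lists around the chemokines. Points are genes, red ones had an unadjusted p under 0.025 in limma, and black bars are list medians. The list medians run from -0.05 (mRNA decay genes) and 0.00 (adaptors) through 0.20 (neighbors), 0.25 (proteases), 0.33 (receptors), 0.41 (CC chemokines) and 0.50 (other CXC and CX3C chemokines) to 0.73 (other neutrophil factors), the last being 0.35 above the median signal.

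The genes most like CXCL1 and CXCL8 were sought among 13916 other genes with a mean 5-Aza signal of at least 42. Likeness was the root mean square difference of log2(signal + 1), centred on each gene, over the 6 arrays. It was used as a description, since any gene with a similar group difference comes close. The nearest to CXCL1 was PI3, which encodes elafin, an epithelial inhibitor of neutrophil elastase, at a difference of 0.19. PI3 had 1221.6, 1301.7 and 1548.6 after 5-Aza and 141.4, 127.3 and 206.9 in control cells (log2 fold change 3.11, SE 0.24). UCHL1, FAM110B, PDE4DIPP2 and PAX1 followed (0.27 to 0.42), all with control signals of 14.7 or less. CXCL3 stood at 0.48 from CXCL1 and CXCL8 (_s_at) at 0.61. The control signals of UCHL1, FAM110B, PDE4DIPP2 and PAX1 were not above background on any array, so no order of nearness is read from them.

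The nearest to CXCL8 (_s_at) were CRIP3, PROKR2, SLC47A1, THEMIS2 and LINC02800, at 0.27 to 0.38. Their control signals were 3.6 to 29.6. The other probe set of CXCL8 stood at 0.27, CXCL3 at 0.36 and the _x_at probe set of CXCL2 at 0.39. At most 1 control array of each gene was above background, and the genes were picked for matching CXCL8 on each array, so their shared pattern is fixed by the choice.

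**Figure D5:**
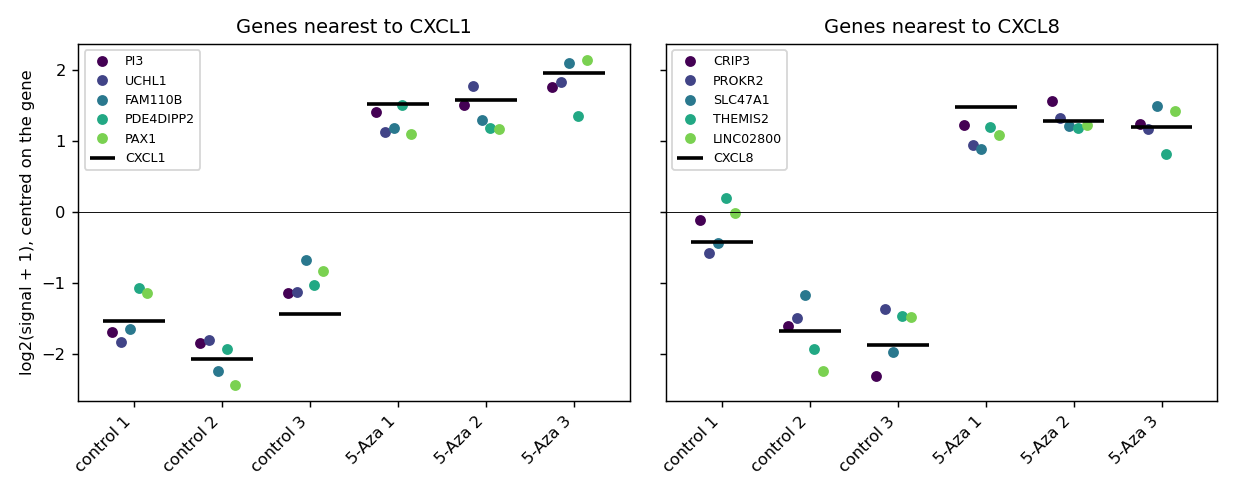
Log2(signal + 1), centred on each gene, of the 5 genes nearest to CXCL1 (left) and to CXCL8 (right) on the 6 arrays. Points are single arrays and black bars are CXCL1 or CXCL8 (_s_at). The genes were picked for their likeness, PI3 having the smallest difference from CXCL1 (0.19), and apart from PI3 their control signals are mostly below background.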

How the data were processed

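Gene expression was measured on 6 HGU133 Plus 2.0 arrays, 3 of 5-Aza-treated and 3 of control HT-29 cells, grouped by the sample labels. The authors deposited 1 linear intensity value for each of 54675 probe sets and array. Their processing notes name the affy package, without a version, and background correction, summarization and detection calls are not given in the sources used here. The other experiments of the study were not analysed here.

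After removal of 61 control probe sets, log2(signal + 1) was compared with limma 3.58.1 in R 4.3.3 (group as the only term, empirical Bayes, Benjamini-Hochberg over all 54614 probe sets). Calls were made at an adjusted p under 0.05 and at an unadjusted p under 0.025. The study names the limit of 0.025 for the treated cells, without saying whether its p was adjusted. It also ranked probe sets by log2 fold change, and that ranking was not used here, so the calls are not those of the study. The script was tested on simulated data. Of the 54675 probe sets, 41097 have 1 gene symbol, 1801 several and 11777 none, and symbols were updated through gene identifiers. A list gene was represented by its single-symbol probe set with the highest mean signal, _x_at ones only where no other exists.

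The members, lists and the rule for named genes were chosen with earlier results of these data known. The rule took all members, up to 4 genes of a list with the smallest unadjusted p under 0.025, or else the strongest signals up to 2, and the 5 genes most like CXCL1 and CXCL8. Promoters were aligned with Biopython 1.88 (all 6 members matched). Protein sequences were not used here. Nothing pairs arrays across groups, and same-numbered arrays did not deviate together (correlations of -0.012 to 0.01). Arrays did not duplicate each other (correlations 0.926 to 0.934). The number of arrays limits the precision.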

Additional observations from a re-analysis of the deposited data

How the results depend on the processing

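The log2 fold changes of the 11 chemokine probe sets were recomputed under several alternative settings, which gave 121 values over probe sets and settings. Of these values, 120 moved by less than the probe set's own SD between replicate arrays. The exception was the _x_at probe set of CXCL5, at 3.48 when 16 was added before the logarithm. That limit is wide for noisy probe sets, so the count says little about them. Within it, CXCL6 went from 3.73 to 2.45 without control replicate 2, and CXCL5 (_s_at) from 2.7 to 1.31 with 16 added. The replicate block is among the alternatives and cannot change a fold change in this balanced design. The plain _at probe set of CXCL5, whose groups overlapped, ran from -0.72 to 0.49 without any 1 array. No probe set without overlap between groups changed its direction. The median over all 11, 2.64, lay between 2.42 and 2.71 when any 1 array was left out. The number of probe sets higher without overlap was 7 or 8, and leaving out an array cannot lower it. With the replicate number as a block the median was 2.64, which the balanced design fixes. The replicate block gave 11 higher list genes and 0 lower.

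The 13 higher list genes were 4 after median centring and 6 after quantile normalization. A SAM-type statistic gave 7, and the study names SAM without the settings of its statistic. Higher list genes were 6 to 11 when any 1 array was left out, with 7 without 5-Aza replicate 1, 6 without 5-Aza replicate 3 and 8 without control replicate 1. The 0 lower list genes were 1 with 16 added, after median centring, above the median signal and with trend and robust variance, and 0 to 1 without any 1 array. Over all probe sets, 1621 higher and 575 lower ones were 926 and 1451 after median centring, so 73.8% of calls were higher in the one and 39% in the other (54.6% after quantile normalization). Lower ones were 909 after quantile normalization and 909 with trend and robust variance. At an adjusted p under 0.05 the count of 0 was 10 above the median signal and 23 with trend and robust variance. The causes were not tested.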

Other observations

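Several epithelial inflammatory genes outside the rule for named genes, chosen after their values were seen, had groups that did not overlap, although their unadjusted p in limma was above 0.025. They belong to the list of 20 other neutrophil factors. In that list 10 genes were higher and 1 lower without overlap, against 9.92% and 6.94% of all genes. For ICAM1, IL1A, LIF, IL17C and IL6 of the list the groups overlapped, and IL6 had a log2 fold change of -0.43 (SE 1.12). TNF had 75.7, 75.6 and 73.1 after 5-Aza and 31.1, 21.9 and 2.3 in control cells, with 1 control array above background. LCN2, the neutrophil gelatinase-associated lipocalin, had 5265.4, 6311.2 and 7325.8 against 2059.4, 5194.8 and 2330.7, so control replicate 2 came close to the treated arrays. IL32 had 655.8, 421.2 and 463.2 against 198.5, 34.8 and 230.9, and PTGS2, the inducible cyclooxygenase, had 702.7, 685.8 and 703.3 against 469.9, 88.4 and 379.2. For IL32 and PTGS2, as for CXCL6 and RASSF6, control replicate 2 was the lowest of the control arrays, while for LCN2 it was the highest. CSF3, which encodes the neutrophil growth factor G-CSF, was at background on all 6 arrays (22.4 at most).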
